A study of Mus musculus with 36 samples.

Results

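Klf15 and 8 other Krueppel-like factor genes, Klf2, Klf3, Klf4, Klf5, Klf6, Klf9, Klf10 and Klf13, were followed in mouse left ventricles in which 1 of 3 signalling transgenes had been switched on in heart muscle cells. The members were taken by gene symbol. Of the array's probe sets, 30 were annotated to them and 26 of these passed a filter on dim probe sets. The brightest probe set of each gene over the 36 arrays stood for the gene, and all 9 genes passed, which made 9 of the 12626 genes tested. Klf15 showed the fourth largest fall of these 12626 genes in early HRas-v12 hearts. Klf9, Klf2 and Klf4 fell less, and Klf5 rose by its brightest probe set only.

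Krueppel-like factors are transcription factors whose zinc fingers at the end of the protein bind GC-rich DNA and CACCC motifs. In heart muscle, Klf15 is known to drive genes of fatty acid, branched-chain amino acid and glucose use and to hold back hypertrophic and matrix genes. Its RNA is known to respond to glucocorticoids and the circadian clock, and it is known to set the daily rhythm of Kcnip2, a potassium channel subunit. Klf2 and Klf4 are best known from the endothelium, and Klf5, Klf6 and Klf10 from growth factor and TGF-beta signalling.

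Transgenic mice held 1 floxed signalling transgene together with Mer-Cre-Mer, in which Cre is flanked by estrogen receptor domains and works only once tamoxifen binds. Both transgenes were driven by the alpha myosin heavy chain promoter, which is active in heart muscle cells, so only that cell type was targeted in a tissue that holds many. HRas-v12 is an always active Ras protein, MKK3bE an active kinase upstream of p38 and MKK7D an active kinase upstream of JNK. RNA of whole left ventricle was hybridised to Affymetrix mouse whole-genome arrays, 1 sample per array. The transgenic lines were on a C57black background, and all groups were injected at 12 weeks of age with tamoxifen, 20 mg/kg daily on 3 days in a row. The labels describe the controls as non-transgenic littermates, which were injected too, and they do not give the genotype behind the title MKK7D control. Early arrays came from hearts taken 4 to 7 days after the first injection, and late arrays from hearts taken 2 to 4 weeks after it. For HRas-v12 there were 5 early arrays (2 of females and 3 of males) and 6 late ones (3 of each sex). For MKK3bE there were 2 early arrays, both of females, and 5 late ones (2 of females and 3 of males). MKK7D was studied in females, with 3 arrays per time and as many of MKK7D controls. The controls of the HRas-v12 and MKK3bE lines were 3 females and 3 males whose labels give no time point and which served both times and both lines. Whether each array stands for its own animal is not stated in the labels, so the p-values cover the spread among these arrays and no more.

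Promoter sequence is shown for Klf15 and Klf9, the pair of members whose signals ran most alike over the 36 arrays. The 250 bases before the annotated start are taken from RefSeq on GRCm38.p6. The Klf15 window lies at chr6:90462326-90462575 on the plus strand, inside the annotated span of the gene (90461043 to 90491803), and the Klf9 window at chr19:23140976-23141225 on the plus strand, just before the gene. Capitals mark CACCC or its reverse GGGTG, the E-box CACGTG that clock factors bind, and TGANTCA, each searched on both strands. The last is a loose form of the AP-1 motif, with any base at N. The choice of capitals was widened to the E-box and the AP-1 motif after the match counts were seen.
Klf15: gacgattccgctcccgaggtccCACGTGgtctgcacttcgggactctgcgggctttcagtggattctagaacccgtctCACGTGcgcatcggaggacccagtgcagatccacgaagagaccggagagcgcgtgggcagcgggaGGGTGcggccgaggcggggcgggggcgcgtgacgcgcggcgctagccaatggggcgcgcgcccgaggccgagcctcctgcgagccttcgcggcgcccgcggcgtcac
Klf9: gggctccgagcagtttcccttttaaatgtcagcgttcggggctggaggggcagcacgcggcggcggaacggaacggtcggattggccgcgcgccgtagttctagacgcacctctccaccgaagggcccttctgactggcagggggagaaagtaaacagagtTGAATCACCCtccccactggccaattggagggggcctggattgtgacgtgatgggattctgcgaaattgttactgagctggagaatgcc

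The Klf15 window held 2 E-boxes and 1 CACCC match and was 72.0% G or C. The Klf9 window held 1 match to the loose AP-1 pattern, with A at its free base, and 1 CACCC match. The 2 overlap in the run TGAATCACCC, and the window was 59.6% G or C. Of 27025 promoter windows of this length, 51.301% held a CACCC match, 6.046% an E-box and 6.868% an AP-1 match. Among the other members with a window, Klf4 and Klf6 held 1 E-box each and Klf3 held 5 CACCC matches. The GC-box GGGCGG, left in lower case, was found in the windows of Klf2, Klf3, Klf4, Klf6, Klf13 and Klf15 and in 32.936% of all windows. These are letter matches in 1 window per gene and describe no binding.

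The labels of 6 arrays were in doubt. Esr1, whose probe set can also read the estrogen receptor parts of Mer-Cre-Mer, had 294 to 7943 signal units in the shared controls and lay above all of these in 21 of 24 transgenic arrays. It did not in the arrays labelled HRas-v12 female early 3 (688), male late 1 (2915) and male late 3 (1327). It was high in the arrays labelled MKK7D control female late 8 (106402) and 9 (91291). The array labelled MKK7D control female early 1 had the lowest signal of the X-inactivation RNA Xist among the female arrays (2316). That signal was still above every male array (850 to 1700). Many results that rest on these 6 arrays are given with and without them, a choice made with the values known. Others, such as the early HRas-v12 changes of Klf2, Klf4, Klf5, Kcnip2 and Nr3c1, are given with them only. Without them, the early HRas-v12 females, the late HRas-v12 males and the late MKK7D controls have a lone array each. Such an array is assumed to vary like the other groups. Leaving out HRas-v12 female early 1 instead leaves female early 3, with low Esr1, as the lone early HRas-v12 female. The 11 cardiac muscle marker genes were above the filter and summed to 1076046 to 2198081 units over the 36 arrays, and the 3 atrial marker genes (Myl7, Myl4 and Sln) to 2204 to 132504 units.

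In early HRas-v12 hearts, Klf15 RNA was low in all 3 males, at 107, 574 and 73.0 signal units, and at 1653 and 7448 units in the females, numbered 1 and 3. Control males had 5119.7, 5403 and 4119 units and control females 9206, 10794 and 9461. Every HRas-v12 array lay below every control of its own sex, but the array labelled HRas-v12 female early 3, with low Esr1, lay above the control males. The mean was 1971 ± 3128 units in early HRas-v12 hearts (SD, n = 5) and 7350.4 ± 2792 in the shared controls (SD, n = 6). On the log2(signal + 32) scale, with the difference taken within each sex and averaged over both, Klf15 fell, with a log2 change of -3.02 (SE 0.43, limma adjusted p = 3.08e-05), or 8.08-fold. Of the HRas-v12 males 2 lay below 414.3 units, the level of the filter on dim probe sets, and the fold was 6.47 and 8.52 with the 2 other pseudocounts tried. Without the 6 arrays in doubt, which leaves female 1 as the lone early HRas-v12 female, the change was -3.55. In whole tissue, fewer cells of a type and less RNA per cell cannot be told apart.

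**Figure D1:**
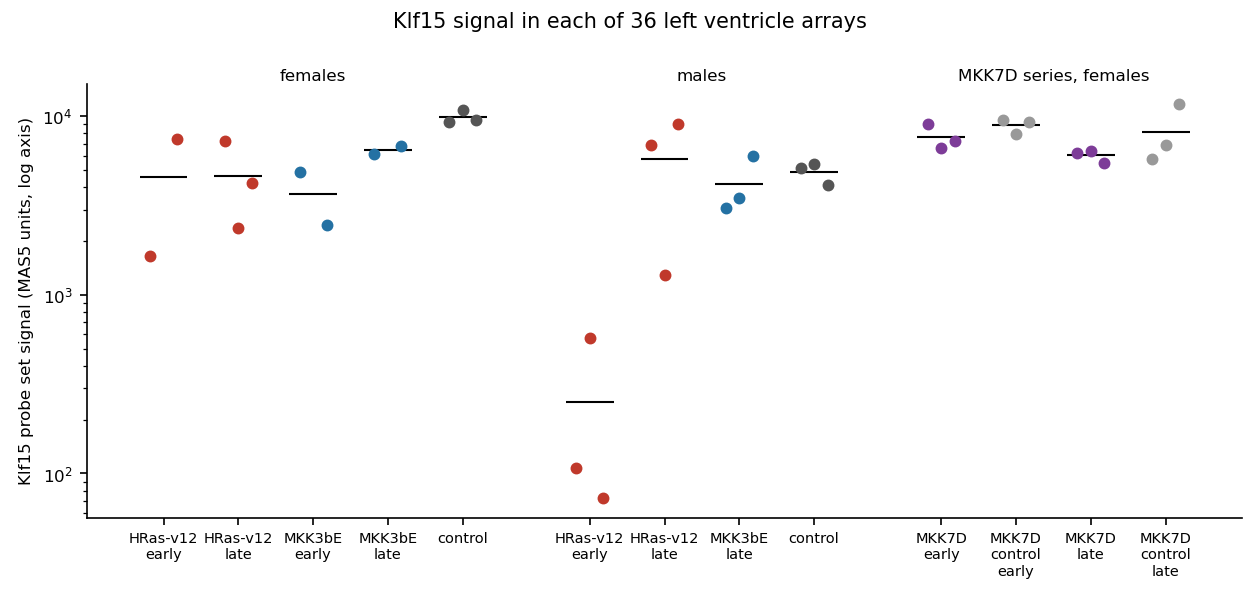
Klf15 probe set signal (MAS5 units, log axis) in each of the 36 arrays, 1 point per array and a line at each group mean, transgenic groups left of their controls. The 3 early HRas-v12 males, at 73.0 to 574 units, sit below every other array.

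Early HRas-v12 changed more members than Klf15. Of the 9, 5 passed the limma test at an adjusted p under 0.05, 4 lower and 1 higher, where 33.8% of all 12626 genes passed, 18.7% lower and 15.1% higher. Klf9 fell, with a log2 change of -0.71 (SE 0.17, limma adjusted p = 0.00222), as did Klf2, with a log2 change of -0.73 (SE 0.20, limma adjusted p = 0.00711), and Klf4, with a log2 change of -0.59 (SE 0.14, limma adjusted p = 0.00241). Klf5 rose, with a log2 change of 0.81 (SE 0.22, limma adjusted p = 0.00656). Klf3 had a log2 change of -0.17 (SE 0.08, limma adjusted p = 0.0983) and Klf10 a log2 change of 0.31 (SE 0.20, limma adjusted p = 0.254), neither of which passed. Klf6 at 0.12 and Klf13 at -0.10 did not pass either, and the median over all genes was -0.04. Without the array labelled HRas-v12 female early 1, Klf15 and Klf4 still passed, and Klf9, Klf2 and Klf5 did not. Without the 6 arrays in doubt, which leaves female early 1 as the lone early HRas-v12 female, Klf10 was at 0.45. Over all alternatives the count of all genes called ran from 1571 to 5335, so 33.8% is not the share beside these fits.

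**Figure D2:**
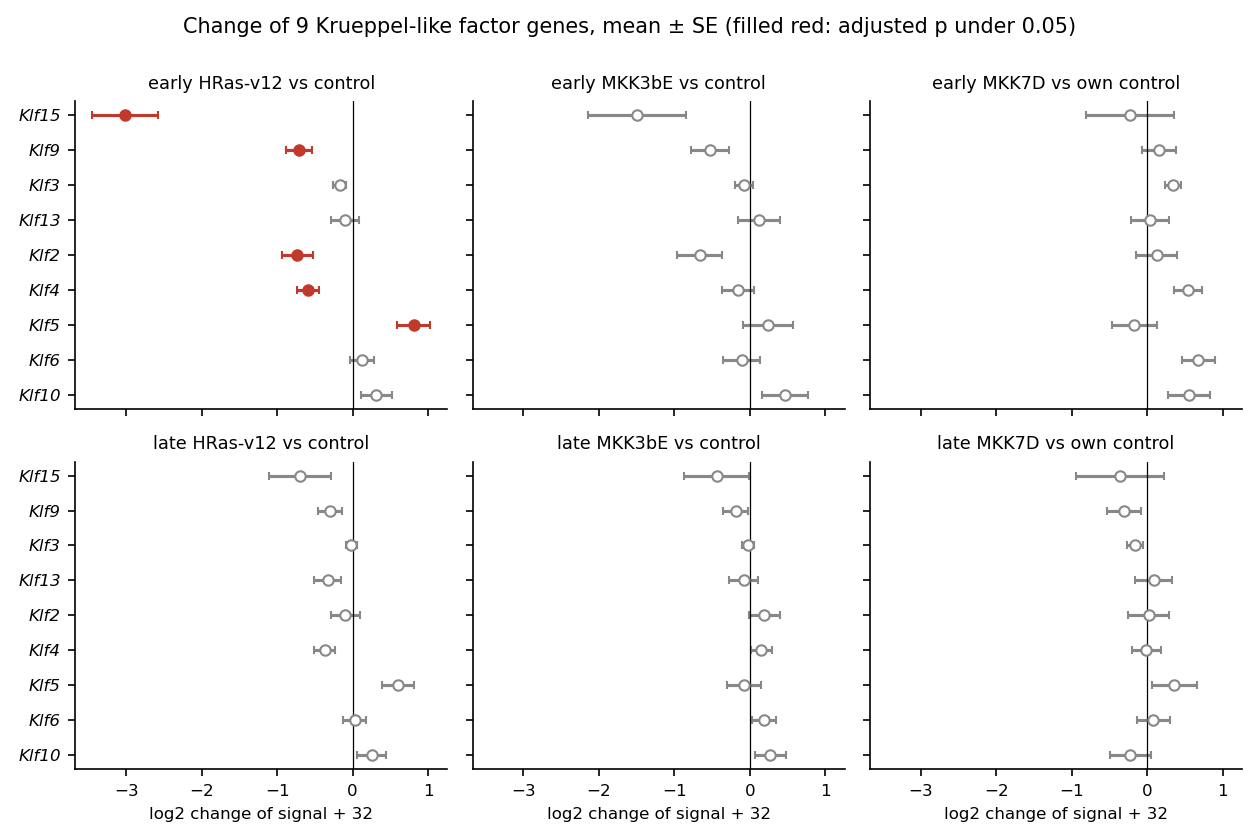
Log2 change of signal + 32 of the 9 genes in each of 6 comparisons of transgenic hearts with their controls, mean ± SE, filled red at an adjusted p under 0.05. Filled points are seen in early HRas-v12 only: 5 of 9 genes there, with Klf15 at -3.02.

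Klf9, a factor that glucocorticoids induce in several tissues, had 12516, 13978 and 13247 units in early HRas-v12 males and 16829 and 35575 in the females, against 21256, 25860.1 and 28561 in control males and 31159, 37879.7 and 35375 in control females. All 3 HRas-v12 males were below the control males, while the females overlapped through the array labelled HRas-v12 female early 3. The share of all genes lying apart in 1 sex alone was not computed for HRas-v12 or late MKK3bE hearts. Statements on 1 sex, here and below, therefore only describe the arrays. The fall was 1.64-fold, and the change was -0.98 (adjusted p = 1.09e-06) without the 6 arrays in doubt but -0.44 (adjusted p = 0.0815) without female early 1. The 6 further probe sets of Klf9 had log2 changes of -1.08 to -0.14, all in the direction of the brightest one.

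Klf2 and Klf4, which in endothelium respond to blood flow and switch on Nos3 and Thbd, were lower in early HRas-v12 hearts than in controls. Klf2 had 7634 and 10609 units in HRas-v12 females and 4661, 7264 and 5659 in males, against 21428, 16825 and 7689 in control females and 7468, 10644 and 13468 in control males. The HRas-v12 males lay below the control males, and the females overlapped with control female 2. Klf4 had 7699.6 and 9118 units in HRas-v12 females and 4496, 7939 and 4939.8 in males, against 12376, 14111 and 7854 in control females and 7768, 10098 and 11331 in control males. For Klf4, each sex overlapped in at least 1 array. Without female early 1, Klf2 was at -0.61 (adjusted p = 0.0817) and Klf4 at -0.53 (adjusted p = 0.0352). The 1 further Klf4 probe set had -0.53, beside -0.59 for the brightest, and Klf2 has no other.

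**Figure D3:**
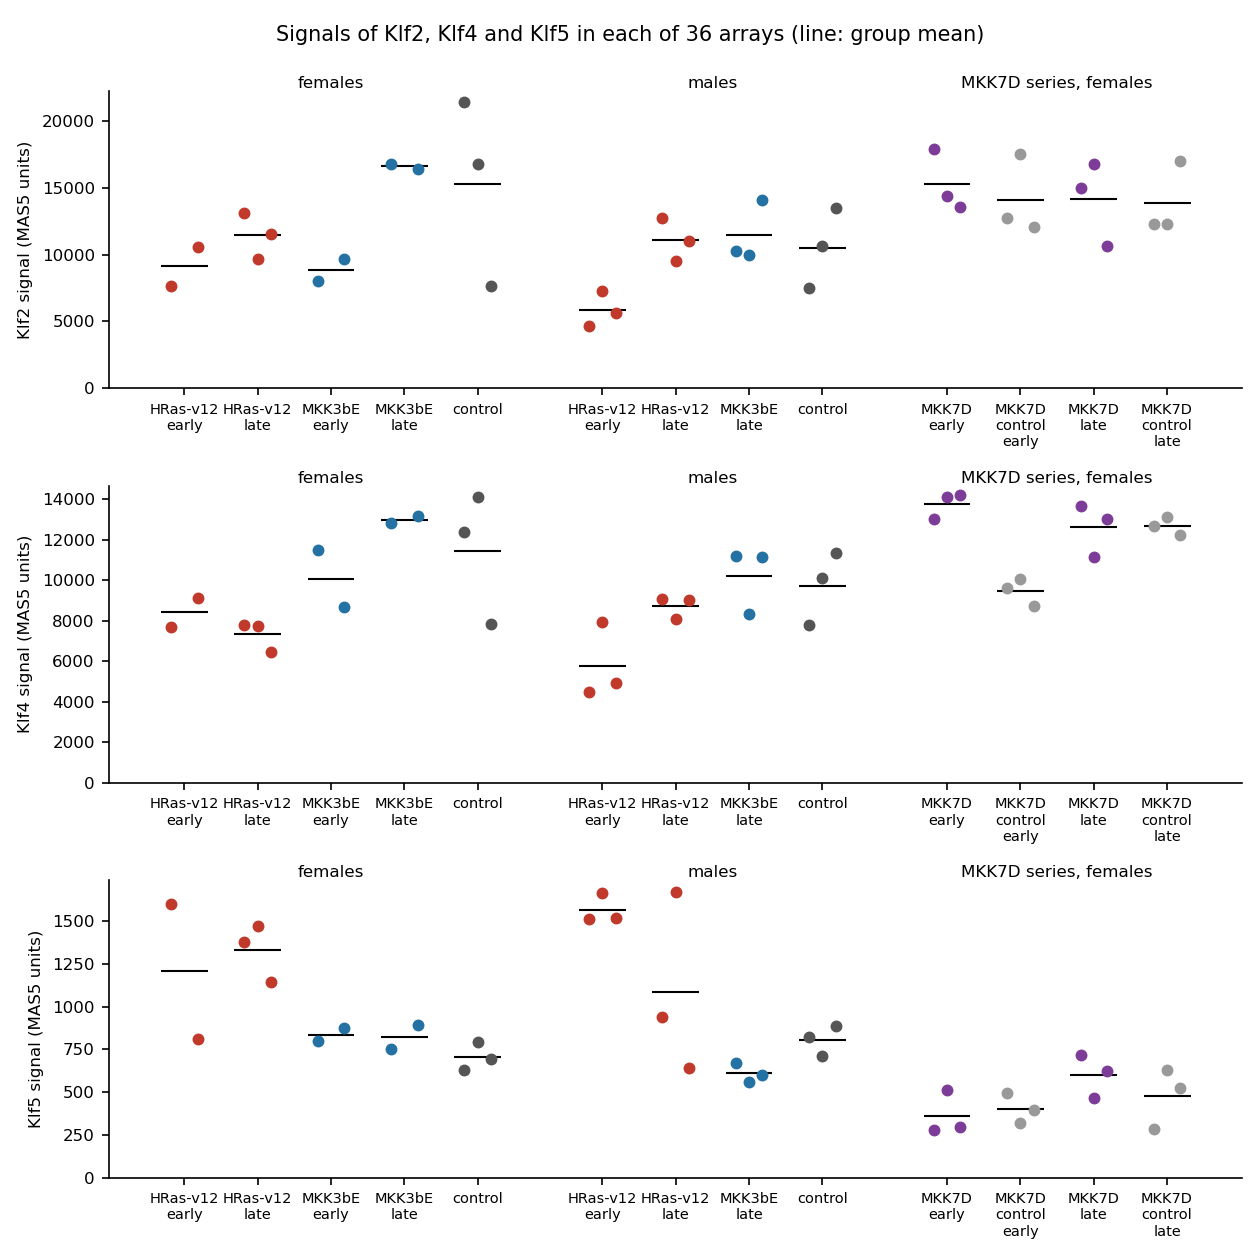
Signals of Klf2, Klf4 and Klf5 (MAS5 units, linear axes) in each of the 36 arrays, 1 point per array and a line at each group mean, transgenic groups left of their controls. Early HRas-v12 arrays sit low for Klf2 and Klf4, and 4 of the 5 sit at 1513 to 1668 units for Klf5.

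Klf5, known as an activator of Pdgfa and of fibroblast and smooth muscle growth genes, had 1604 and 813 units in early HRas-v12 females and 1513, 1668 and 1519 in males. Control females had 629, 792 and 692 units and control males 821, 711 and 889. Every HRas-v12 array was above every control of its sex, and 4 of the 5 were above all 6 controls. The rise was 1.75-fold by this probe set but the other 2 Klf5 probe sets were at -0.50 and -0.07, so the gene's direction differed between probe sets. Without female early 1 the change was 0.57 (adjusted p = 0.122). With the mean of the probe sets above the filter it was 0.37 (adjusted p = 0.114).

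Klf10, first described as a TGF-beta inducible early gene, had 3896 and 2599.6 units in early HRas-v12 females and 3346, 3996 and 3011 in males, against 2483, 3907 and 3079 in control females and 2299.6, 2433 and 2109 in control males. The males did not overlap and the females did. Klf6, an immediate-early factor of injured tissue, had 5905 to 6488 units in early HRas-v12 females and 7606 to 13311 in males, against 6965 to 9326 in control females and 5473 to 9376 in control males. Klf3, a repressor that works through Ctbp proteins, was the 1 member whose early HRas-v12 arrays (10075 to 11755 units) lay wholly below the shared controls (12041 to 13783 units) when the sexes were pooled, as did 2.76% of all genes, while 1.51% lay wholly above. Klf13, known from frog embryos as a partner of Gata4, ranged widely, at 4622 to 9015 units against 4928 to 9449.9. Within sex, Klf15 and Klf3 lay wholly below and Klf5 wholly above, where 5.96% of all genes lay below and 4.05% above. The comparison within sex was added after the overlap of Klf15 across sexes had been seen.

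Most genes of 2 metabolic lists linked to Klf15 fell in early HRas-v12 hearts, but fewer passed without the array labelled female early 1. Of the 20 amino acid catabolism genes linked to Klf15, 15 fell and 0 rose, with a median log2 change of -0.79 against -0.04 over all genes and 18.7% of all genes lower. They include Ppm1k, the phosphatase that activates branched-chain ketoacid dehydrogenase, with a log2 change of -1.44 (SE 0.28, limma adjusted p = 0.000459), and Bckdk, the kinase that opposes it, with a log2 change of -0.64 (SE 0.12, limma adjusted p = 0.000341). Mmut, which feeds propionyl carbon into the citric acid cycle, changed by -0.97 (adjusted p = 0.000765), and Hibch of valine breakdown by -0.79 (adjusted p = 0.00101). Of the 17 genes of fatty acid and glucose uptake and oxidation, 13 fell and 0 rose, with a median of -0.82. Fabp3, the fatty acid carrier of heart muscle, had a log2 change of -1.30 (SE 0.15, limma adjusted p = 2.57e-06). The beta-oxidation enzymes Acadm and Hadha changed by -1.06 (adjusted p = 3.78e-05) and -0.96 (adjusted p = 0.000553), and Lpl, the lipase of the vessel wall, by -0.58 (adjusted p = 0.000525).

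**Figure D4:**
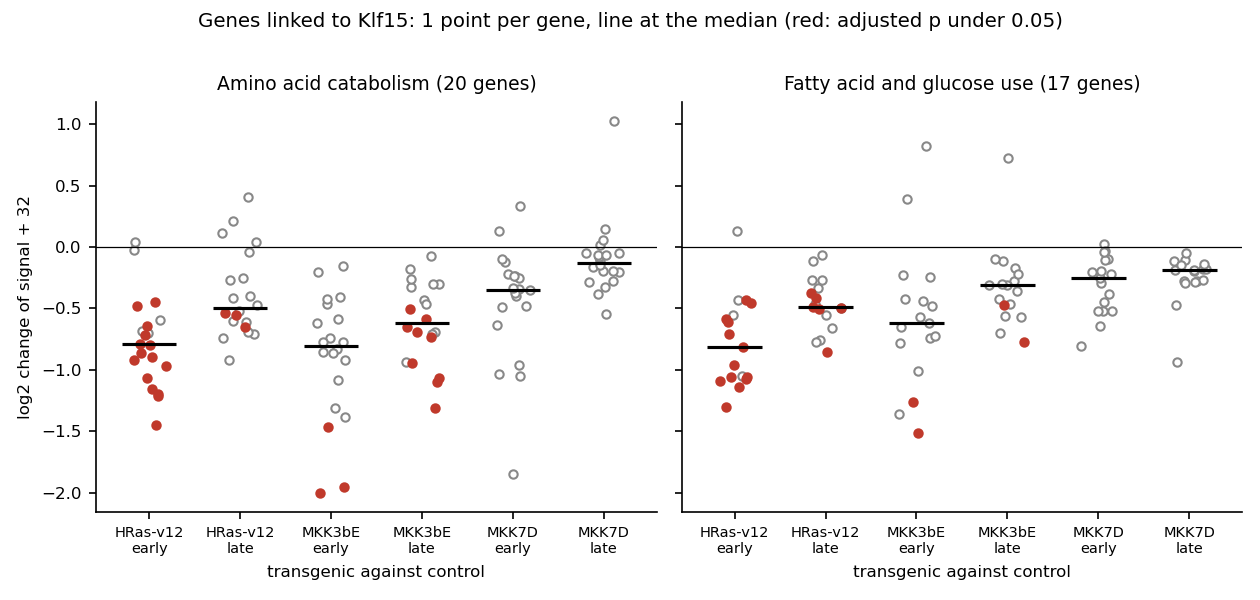
Log2 change of signal + 32 of genes linked to Klf15 in 6 comparisons of transgenic hearts with their controls, 1 point per gene, a line at the median, red at an adjusted p under 0.05. The early HRas-v12 medians are -0.79 for the 20 amino acid catabolism genes and -0.82 for the 17 fatty acid and glucose genes.

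Cardiac muscle markers moved with these lists. All 11 fell in early HRas-v12 hearts (median -0.57), and their summed signal was 1076046 to 1559170 units there against 1661022 to 2198081 in the shared controls. No cardiac, macrophage or fibroblast marker was at 0 in any array. Macrophage markers rose in 8 of 15, with sums of 67287 to 269974 units against 72358 to 109738, and fibroblast markers in 5 of 11, with 200676 to 581366 units against 204198 to 273944. Of the few markers of other cell types, 1 smooth muscle marker rose and 2 fell of 6, 1 of 3 fat cell markers fell, and 0 of 2 red blood cell and 0 of 3 atrial markers passed. The part of these cell types in the results was not tested. Without the array labelled HRas-v12 female early 1, 6 of the 20 amino acid genes, 8 of the 17 fatty acid and glucose genes, 9 of the 11 cardiac markers, 1 of the 15 macrophage and 0 of the 11 fibroblast markers passed. With the 6 arrays in doubt left out, 17 of the 20 and 16 of the 17 fell, beside 11 of 11 cardiac markers, while 14 of 15 macrophage and 7 of 11 fibroblast markers rose. Leaving out HRas-v12 male early 3, control male 1 or control female 1 left 5 macrophage markers higher.

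Of 12 hypertrophy and matrix genes and regulators that Klf15 is known to curb, 1 rose and 4 fell in early HRas-v12 hearts (median -0.04). Over all genes, 15.1% passed higher and 18.7% lower. Ccn2, a matrix growth factor, rose, with a log2 change of 1.32 (SE 0.37, limma adjusted p = 0.00816). Those named among the falls were Acta1, the skeletal actin of the hypertrophic programme (-1.20, adjusted p = 0.0234), the transcription factor Mef2d (-0.60, adjusted p = 0.0119) and the acetyltransferase Ep300 (-0.32, adjusted p = 0.0113). Without female early 1, 0 of the 12 passed, in limma with the same settings, and without the 6 arrays in doubt 3 rose and 4 fell.

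Kcnip2, whose daily rhythm Klf15 is known to set, was low in 4 of 5 early HRas-v12 arrays. It had 154, 143 and 909 units in the males and 5568 and 32678 in the females, against 24765 to 40256 in the shared controls. The array labelled HRas-v12 female early 3 was again within the control range and the other 4 below it. The change was -3.93 (SE 0.49, adjusted p = 8.2e-06). Its size is limited by the males at 154 and 143 units, below the filter level of 414.3 units.

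Some glucocorticoid and clock genes passed in each direction in early HRas-v12 hearts, where 15.1% of all genes passed higher and 18.7% lower. Nr3c1, the glucocorticoid receptor, had 10099 and 10562 units in early HRas-v12 females and 8101, 7346 and 9849 in males, against 10250.1, 10257 and 13059 in control females and 14639, 14249 and 13033 in control males. The males lay below the control males, 1 female lay just below the control females and the other within their range. The change was -0.42 (adjusted p = 0.00346). Of the 14 genes of the receptor and its targets, 5 rose and 3 fell (median -0.17). Fkbp5, the receptor's co-chaperone, rose by 1.31 (adjusted p = 0.00066), Mt2, a metallothionein, by 1.90 (adjusted p = 0.000666) and Errfi1, a brake on the EGF receptor, by 0.93 (adjusted p = 0.000838). Dusp1, a MAP kinase phosphatase, changed by -0.82 (adjusted p = 9.21e-05). Of 15 clock genes 2 rose and 4 fell (median -0.31). The falls include the output factors Hlf (-1.60, adjusted p = 0.000852) and Tef (-0.64, adjusted p = 0.00353) and the repressor Nr1d2 (-0.74, adjusted p = 0.000743), and Bhlhe40, an E-box repressor, rose by 0.80 (adjusted p = 0.00132). Without female early 1, 3 glucocorticoid genes rose and 2 fell, and 1 clock gene rose and 2 fell. Leaving out HRas-v12 male early 1, control male 2 or control female 1 also left 1 clock gene higher. Leaving out the 6 arrays in doubt, 5 glucocorticoid genes rose and 5 fell, and 2 clock genes rose and 7 fell. The labels used here give no hour of collection.

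Of the 7 endothelial targets of Klf2 and Klf4 tested, 1 rose and 2 fell in early HRas-v12 hearts. The shares of all genes were 15.1% higher and 18.7% lower. Nos3, the endothelial nitric oxide synthase, changed by -0.69 (adjusted p = 0.00252) and Thbd, thrombomodulin, by -0.66 (adjusted p = 0.000185). Ccl2, a monocyte attractant that Klf2 and Klf4 repress, rose by 2.23 (adjusted p = 0.00932). General endothelial markers moved with them: 10 of 13 fell and 0 rose (median -0.60), with sums of 49811 to 100332 units against 81447 to 118214 in the controls and none at 0. Without female early 1 fewer of the 13 passed and their median was -0.43. It was -0.74 without the 6 arrays in doubt, which leaves female early 1 as the lone HRas-v12 female. The part of endothelial cell number in the Klf2 and Klf4 values was not tested.

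Around Klf5, Klf6 and Klf10, 7 of 11 TGF-beta genes rose and 1 fell in early HRas-v12 hearts (median 0.62). The ligands Tgfb1 and Tgfb2 rose by 0.80 (adjusted p = 0.00351) and 1.84 (adjusted p = 0.00586), and Pdgfa, the growth factor that Klf5 activates, by 0.83 (adjusted p = 0.00051). Without female early 1 fewer of the 11 passed and their median was 0.44. It was 0.805 without the 6 arrays in doubt, which leaves female early 1 as the lone HRas-v12 female. The fibroblast and macrophage markers that rose beside them are given above, and their part was not tested. Among the partners of Krueppel-like factors, 1 of 11 rose and 2 fell, beside 15.1% of all genes higher and 18.7% lower. These shares over all genes apply to the next list too. The partner that rose was Hdac1, a histone deacetylase of repressor complexes, at 0.53 (adjusted p = 0.00282). Fbxw7, the ubiquitin ligase subunit that targets Klf5 and Klf2, was at -0.87 (adjusted p = 0.000154), and Ep300 fell too. Of the 11 other Krueppel-like and Sp factors tested, Klf16 rose by 0.73 (adjusted p = 0.00165), and Klf11 (-0.56, adjusted p = 0.00136) and Klf12 (-0.82, adjusted p = 0.00757) fell, while without female early 1, 0 rose and 1 fell.

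Klf15 was lower in early HRas-v12 arrays than in the controls within each sex. The early HRas-v12 change was -4.56 in males and -1.47 in females on the log2(signal + 32) scale. Since 2 of the 3 HRas-v12 males lay below the level of the filter on dim probe sets, no fold is given for the males, and the females were 2.77-fold lower than control females. The male minus female difference was -3.09 (SE 0.87, adjusted p = 0.0665), which missed the threshold, and 0 of 9 members passed where 1.1% of all genes did (2376 of 12626 at an unadjusted p under 0.05). It was -4.17 (adjusted p = 0.00681) without female early 1, which leaves female early 3, with low Esr1, as the 1 HRas-v12 female. It was -3.87 (adjusted p = 0.0243) without male early 2, and -2.02 (adjusted p = 0.236) without the 6 arrays in doubt, which leaves female early 1 alone. A lone array is assumed to vary like the other groups. Kcnip2 passed the same test, at -5.16 (adjusted p = 0.0154), but HRas-v12 males at 143 and 154 units lay below the filter level, which limits its size. Its value also rests on female early 3, at 32678 units beside 5568 in female early 1, and is not given without the arrays in doubt. Klf6 had the opposite sign, 0.98 (adjusted p = 0.117), with 0.61 in males and -0.36 in females. Among the controls, males had less Klf15 signal than females in every array, a male minus female change of -1.01 (adjusted p = 0.652), and Klf9 had -0.47 (adjusted p = 0.538). No member and 0% of all genes passed there (1148 at an unadjusted p under 0.05). Xist did not pass either, at 1232 to 1670 units in control males and 4033 to 15354 in control females. A test that missed Xist cannot show that a member is alike in both sexes.

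At the late time point of HRas-v12, 0 of 9 members passed, where 9.52% of all genes did (4.86% higher, 4.66% lower) and 3576 had an unadjusted p under 0.05 in limma. Klf15 had 7298, 2372 and 4227 units in late HRas-v12 females and 6917, 1285 and 8992 in males, with a log2 change of -0.69 (SE 0.41, limma adjusted p = 0.268) against the shared controls. The females lay below all control females, and the males lay on both sides of the control males, from 1285 units in the array labelled HRas-v12 male late 3 to 8992 in male late 4. Klf4 had 7793, 7718 and 6461 units in late HRas-v12 females and 9061, 8108 and 9043 in males, against 7768 to 14111 in the shared controls, a change of -0.37 (adjusted p = 0.0725). Klf5 had 1377, 1471 and 1144 units in late HRas-v12 females and 940.2, 1671 and 640.0 in males, against 629 to 889 in the shared controls, a change of 0.60 (adjusted p = 0.0661). Leaving out control female 2 brought Klf4 to -0.50 (adjusted p = 0.0254), and leaving out HRas-v12 male late 4 brought Klf5 to 0.75 (adjusted p = 0.0142). Without the 6 arrays in doubt, which leaves male late 4 as the lone late HRas-v12 male, Klf15 was at -0.17. In neither direction did a member lie wholly apart from the controls in both sexes, where 1.18% of all genes lay above and 1.65% below.

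Some genes linked to Klf15 fell in late HRas-v12 hearts. Of the 20 amino acid genes 3 fell (Mmut, Hibch and Hibadh, with Mmut at -0.65, adjusted p = 0.0318), and of the 17 fatty acid and glucose genes 6 fell. The 6 include Slc25a20, the carnitine carrier of mitochondria (-0.86, adjusted p = 0.0202), and Lpl (-0.41, adjusted p = 0.0238). The medians were -0.50 and -0.49 against 0.02 over all genes. Cardiac markers fell in 8 of 11, with sums of 1197602 to 1680097 units against 1661022 to 2198081, and their part was not tested. Without the 6 arrays in doubt, which leaves male late 4 as the lone late HRas-v12 male, the medians were -0.19 and -0.28. Leaving out 1 array at a time gave 0 to 14 of the 20, 0 to 12 of the 17 and 0 to 10 of the 11 lower. The highest counts of both metabolic lists came without HRas-v12 male late 4, followed by male late 1 (9 and 10). Both lists and the cardiac markers were at 0 without HRas-v12 male late 3 or female late 3, and the 20 also without HRas-v12 female late 4, control male 1 or 5, or control female 1 or 2.

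Klf15 was higher in late than in early HRas-v12 hearts, with a log2 change of 2.32 (SE 0.43, limma adjusted p = 0.00125) or 5.00-fold, averaged over both sexes. In males its mean was 251 units early and 5732 late, and in females 4551 early and 4632 late. Of the early males 2 lay below 414.3 units, the level of the filter on dim probe sets, which limits the fold. Without the 6 arrays in doubt the change was 3.39. That fit leaves female early 1 and male late 4 as lone arrays of their groups, assumed to vary like the other groups. Klf2 was also higher, by 0.63 (adjusted p = 0.0419), with 9540.0 to 13130.2 units late against 4661 to 10609 early. These 2 of 9 members passed, where 11.6% of all genes did (6.91% higher, 4.67% lower). A fit on only the early and late HRas-v12 arrays gave the same Klf15 change at 2.32 (adjusted p = 0.129), and the call of Klf2 ended in 10 of 20 alternatives. Among these were fits without HRas-v12 female early 1, male early 1 or 3, female late 2 or 4, or male late 1 or 4. Klf9 had 0.42 (adjusted p = 0.108), which passed without the array labelled HRas-v12 male late 3, at 0.59 (adjusted p = 0.00476). In the fit without the 6 arrays in doubt, Klf9 at 0.91 (adjusted p = 6.1e-05) and Klf5 at -0.76 (adjusted p = 0.0131) passed beside Klf15, and Klf2 did not. Kcnip2 was higher late by 2.80 (adjusted p = 0.000693), with early males as low as 143 units, below the filter level. Nr3c1 was higher late by 0.42 (adjusted p = 0.0121). Of the clock genes 5 of 15 were higher late and 0 lower, of the amino acid genes 3 of 20 and 0, and of the glucocorticoid genes 2 of 14 higher and 5 lower. In that fit 7 clock, 18 amino acid and 4 glucocorticoid genes were higher late and 5 glucocorticoid genes lower, beside 9 of 11 cardiac markers higher and 14 of 15 macrophage markers lower, whose part was not tested. Leaving out 1 array at a time gave 0 to 8 clock and 0 to 15 amino acid genes higher, with 0 of each without HRas-v12 female early 1 and the highest counts without male late 3.

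In early MKK3bE hearts, of which there were 2 females, 0 of 9 members passed, where 6.26% of all genes did (3.48% higher, 2.78% lower) and 2949 had an unadjusted p under 0.05 in limma. Klf15 had 4845 and 2461 units, against 9206, 10794 and 9461 in control females. Both arrays were below all 3 controls, and the change was -1.50 (SE 0.65, adjusted p = 0.161), or 2.82-fold. Klf9 had 25561 and 22699.7 units against 31159, 37879.7 and 35375 in control females, a change of -0.53 (adjusted p = 0.206) with no overlap either. Klf5 lay above its controls, at 798 and 874 units. With 2 arrays against 3, 22.6% of all genes lay wholly below and 19.9% wholly above. Klf2 had 8032 and 9706 units, within the control range, and -0.67 (adjusted p = 0.182), which became -1.10 (adjusted p = 0.0221) without control female 2. In a fit on only these 5 arrays, Klf15 passed at -1.50 (adjusted p = 0.00919) and Klf9 at -0.53 (adjusted p = 0.0494). Both also passed without the 6 arrays in doubt, Klf15 at -1.50 (adjusted p = 0.0372) and Klf9 at -0.53 (adjusted p = 0.0242), where 2074 of 12626 genes did. None of the 6 belongs to the groups compared here, so the changes are the same and the estimate of the spread is another one.

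The number of genes linked to Klf15 that fell in early MKK3bE hearts turned on which arrays gave the spread. Prodh, proline dehydrogenase, was 4.01-fold lower (adjusted p = 0.00428), Gpt, alanine transaminase, changed by -1.96 (adjusted p = 0.0113) and Bckdhb of the branched-chain ketoacid dehydrogenase by -1.46 (adjusted p = 0.0436), which made 3 of 20 lower and 0 higher (median -0.80 against -0.02). Ppara, the fatty acid receptor, at -1.52 (adjusted p = 0.025) and Slc27a1, a fatty acid transporter, at -1.26 (adjusted p = 0.035) were the 2 of 17 that fell in the other list (median -0.61). Myh7, the slow myosin of stressed hearts, rose by 1.78 (adjusted p = 0.0405), 1 of 12 genes that Klf15 curbs. Of 15 clock genes 2 rose and 4 fell, among them Hlf (-2.50, adjusted p = 0.00444) and Per2, a core repressor (-1.88, adjusted p = 0.0118). Thbd changed by -0.71 (adjusted p = 0.0148), beside 2 of 13 endothelial markers lower, and the TGF-beta ligands Tgfb2 and Tgfb3 rose by 2.57 (adjusted p = 0.0358) and 1.67 (adjusted p = 0.0283), beside 4 of 11 fibroblast markers. Summed cardiac markers were 1408158 to 1722187 units against 1844004 to 2198081 in control females with 0 of 11 called, endothelial ones 72305 to 84632 against 88502 to 118214, and fibroblast ones 462243 to 535392 against 204198 to 273944. Their part was not tested. When the 6 arrays in doubt were left out, none of which is in these groups, the medians were the same, and 14 of the 20, 11 of the 17 and 7 clock genes fell, while 5 of 11 TGF-beta genes rose. Beside them 4 of 11 cardiac and 5 of 13 endothelial markers fell and 6 of 11 fibroblast markers rose. Leaving out 1 of the 5 arrays left 0 to 2 of the 20, 0 to 1 of the 17 and 0 to 3 clock genes lower, and all 3 counts were at 0 without MKK3bE female early 2.

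In late MKK3bE hearts 0 of 9 members passed, where 10.4% of all genes did (5.06% higher, 5.39% lower) and 3338 had an unadjusted p under 0.05 in limma. Klf15 had 6128 and 6761 units in late MKK3bE females and 3068, 3473 and 5949 in males, with a log2 change of -0.44 (SE 0.43, limma adjusted p = 0.554) against the shared controls. The females lay below the control females and the males overlapped with the control males. No member lay wholly on 1 side in both sexes, where 6.33% of all genes lay above and 8.16% below. Of the 20 amino acid genes 9 fell (median -0.62), among them Prodh at -1.31 (adjusted p = 0.00306), while 2 of the 17 fatty acid and glucose genes fell (median -0.31). Myh7 at 1.66 (adjusted p = 0.00386), Ccn2 at 1.52 (adjusted p = 0.0103) and Nppa, the atrial natriuretic peptide, at 1.70 (adjusted p = 0.0466) were 3 of 12 genes that rose in the list Klf15 is known to curb. Of the TGF-beta genes 5 of 11 rose, with Tgfb3 at 1.25 (adjusted p = 0.0104), beside 4 of 11 fibroblast markers. Cardiac markers had 0 of 11 called and sums of 1462534 to 1790312 units against 1661022 to 2198081 in the shared controls. When the 6 arrays in doubt were left out, none of which is in these groups either, 15 of the 20 and 10 of the 17 fell, and 6 of 11 TGF-beta genes, 8 of 11 fibroblast and 8 of 15 macrophage markers rose, beside 3 of 11 cardiac markers lower. Leaving out 1 array at a time left 1 to 9 of the 20 lower and 0 of the 17 each time. For the 20 the count was 5 or fewer without control male 1, 2 or 5, control female 1 or 2, MKK3bE male late 2 or MKK3bE female late 2 or 3. The same steps left 1 to 5 TGF-beta genes and 0 to 4 fibroblast markers higher, the fewest without MKK3bE female late 2. The part of these cell types was not tested. Without the 6 arrays in doubt the changes were the same and the estimate of the spread was another one. Over all alternatives 541 to 2581 genes were called, beside 1319 as reported, so 10.4% is not the share beside that fit. Between late and early MKK3bE females 0 members passed, where 0.00792% of all genes did (766 at an unadjusted p under 0.05). The largest member change there was that of Klf2, 0.91 (adjusted p = 0.661), and Klf15 had 0.89 (adjusted p = 0.961).

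In early MKK7D hearts Klf6, Klf10, Klf4 and Klf3 had the highest changes, but 0 of 9 members passed, where 0.135% of all genes did (0.0871% higher, 0.0475% lower) and 1346 had an unadjusted p under 0.05 in limma. Klf15 had 9022, 6608 and 7255 units in MKK7D and 9479, 7920.0 and 9306 in MKK7D control females, overlapping groups with a change of -0.23 (SE 0.58, adjusted p = 0.923). Klf6 had 9603, 11492 and 10117 units in MKK7D against 5469, 9146 and 5471 in the controls, a change of 0.67 (SE 0.22, adjusted p = 0.206). Klf4 had 13045, 14092 and 14185 units against 9599, 10076 and 8715, a change of 0.54 (SE 0.19, adjusted p = 0.252). In both, all 3 MKK7D arrays were above all 3 controls, and the same held for Klf10 at 0.55 (adjusted p = 0.472) and Klf3 at 0.34 (adjusted p = 0.18). These 4 of 9 members stand beside 11.3% of all genes wholly above and 12.1% wholly below. Klf4 passed in a fit on only these 6 arrays, at 0.54 (adjusted p = 0.031), and Klf6 without MKK7D control early 2, at 0.92 (adjusted p = 0.0482). Without the 6 arrays in doubt, Klf6 was at 0.55 (adjusted p = 0.333) and Klf4 at 0.55 (adjusted p = 0.295). The 4 further Klf6 probe sets had changes of 0.22 to 0.92 and the further one of Klf4 had 0.54, while the 6 further ones of Klf3 had -0.15 to 1.04.

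None of the amino acid or fatty acid and glucose genes passed in early MKK7D hearts (medians -0.35 and -0.25 against -0.00 over all genes), in limma with 1346 genes at an unadjusted p under 0.05. Clock genes gave 3 of the 17 genes called in this comparison. Nr1d1, a clock repressor, and Bhlhe40 rose by 1.95 and 1.76 (adjusted p = 0.000394 each), and Cry1 changed by -1.32 (adjusted p = 0.0439). Of cardiac markers 0 of 11 passed, and their sums overlapped, at 1371347 to 1619204 units in MKK7D and 1347393 to 1695417 in the controls.

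In late MKK7D hearts 0 of 9 members and 0% of all genes passed (643 at an unadjusted p under 0.05 in limma), against controls of which 2 arrays had high Esr1. Klf15 had 6206, 6379.9 and 5484 units in MKK7D and 5737, 6893 and 11726 in the controls numbered 8, 9 and 10, a change of -0.36 (adjusted p = 0.999). Klf9 had 23871, 26452 and 29179 units, below the controls at 31163, 29967 and 37154, a change of -0.30 (adjusted p = 0.999), where 5.53% of all genes lay wholly below and 6.98% wholly above. Without the controls in doubt, which leaves control 10 alone and assumes that it varies like the other groups, Klf15 was at -0.96 (adjusted p = 0.48) and Klf9 at -0.49 (adjusted p = 0.194). The MKK7D change at the late minus the early time gave 0 members, where 0.0158% of all genes passed (673 at an unadjusted p under 0.05), with Klf10 at -0.78 (adjusted p = 0.92) and Klf3 at -0.50 (adjusted p = 0.761).

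The lines were also compared with each other. Late HRas-v12 and late MKK3bE hearts differed in Klf4, which had 7793, 7718 and 6461 units in HRas-v12 females and 9061, 8108 and 9043 in males, against 12800.3 and 13168 in MKK3bE females and 11197, 8351 and 11140.3 in males. The females did not overlap and the males did, and the HRas-v12 minus MKK3bE difference was -0.52 (SE 0.14, adjusted p = 0.0329), the 1 of 9 members that passed where 3.95% of all genes did (1.92% higher, 2.04% lower). It was -0.50 (adjusted p = 0.114) without the 6 arrays in doubt and passed in 13 of 20 alternatives. It did not pass without HRas-v12 female late 4, MKK3bE male late 2 or 4, or MKK3bE female late 2 or 3. Klf5 had 0.68 (adjusted p = 0.0845). Early HRas-v12 and early MKK3bE females gave 0 members, where 1.81% of all genes passed (1774 at an unadjusted p under 0.05 in limma). The Klf15 difference there was 0.03 (SE 0.71), and -1.05 (adjusted p = 0.441) without the 6 arrays in doubt, HRas-v12 female early 3 among them.

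Over the 13 groups, mean Klf15 signal ran from 9820 ± 853 units in control females through 8901 ± 854 in early MKK7D controls, 8118 ± 3177 in late MKK7D controls and 7628 ± 1249 in early MKK7D. It went on through 6444 ± 447 in late MKK3bE females, 6023 ± 475 in late MKK7D, 5732 ± 3988 in late HRas-v12 males and 4881 ± 674 in control males. Below these came 4632 ± 2488 in late HRas-v12 females, 4551 ± 4097 in early HRas-v12 females, 4163 ± 1560 in late MKK3bE males, 3653 ± 1686 in early MKK3bE females and 251 ± 280 in early HRas-v12 males (SD, n = 2 or 3 each). Each neighbouring pair in this order overlapped in its arrays, except the last, early MKK3bE females and early HRas-v12 males.

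The 9 members did not vary as 1 block over the 36 arrays. Log2 values of Klf9 followed those of Klf15 most closely (Pearson r = 0.903), followed by Klf2 (0.764) and Klf4 (0.719), and Klf5 ran opposite (-0.644). For deviations from the group means the values were 0.781, 0.396, 0.435 and -0.434. Klf2 and Klf4 ran together at 0.774, and at 0.603 within groups. The points share their array, its scaling and the same controls, and the group differences carry much of the first measure, so these are descriptions.

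**Figure D5:**
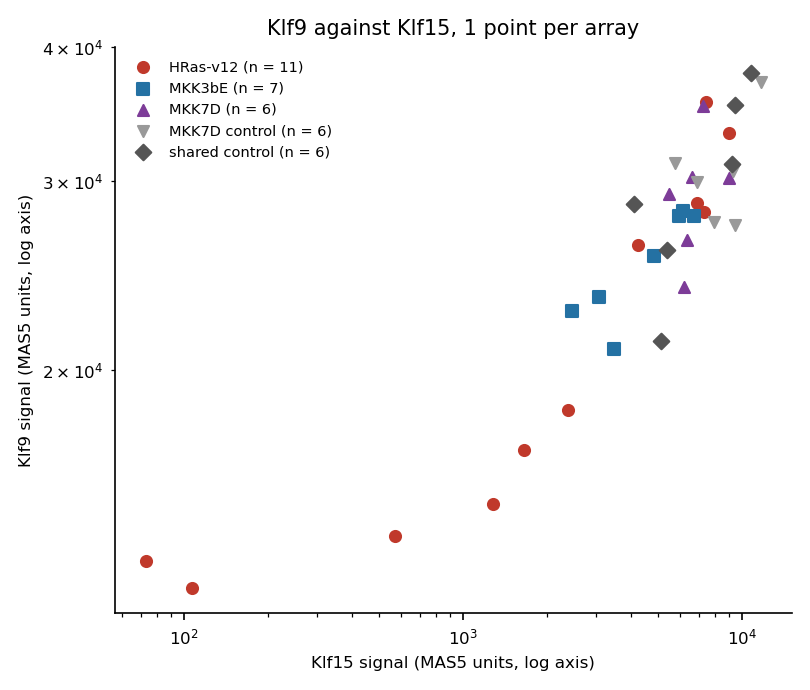
Klf9 against Klf15 signal (MAS5 units, both axes log), 1 point per array, coloured by line (HRas-v12 11 arrays, MKK3bE 7, MKK7D 6, controls 12). Low Klf15 goes with low Klf9, and the 3 early HRas-v12 males lie at the lower left.

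The genes whose values were most like those of Klf15 over the 36 arrays were Smpdl3a (Pearson r = 0.944), Maf1 (0.935), Crebrf (0.930), Gpc1, Aamdc, Tor1aip1, Gstm1, Rtn2, Ephx2 and Fbxo31 (0.916 for the last). Klf9 stood at rank 22 and Kcnip2 at rank 26 in that order. Over the 25 arrays without HRas-v12, 0 of these 10 genes were among the 10 most alike (r 0.289 to 0.795), Klf9 stood at rank 32 (r = 0.766) and Kcnip2 at rank 428 (r = 0.597). Over the 12 controls, again 0 of the 10 were (r 0.418 to 0.781), and Klf9 stood at rank 233 (r = 0.679) and Kcnip2 at rank 642 (r = 0.557). The least alike were Capza1 (-0.946), Ssr1, Sgpp1, Ddx39a and Tubb2b (-0.923 for the last). For deviations from the group means, the most alike were Acss1 (0.905), Selenbp1, Ablim1, Epas1, Bri3, Fbxo31, Slc25a20, Tcaim, Fabp3 and Kcnk3 (0.854 for the last), and the least alike Adss (-0.941), Arsb, Epb41l2, Mcm4 and Mob1a (-0.879 for the last). Fbxo31 was in both lists of 10, and 2 genes of the fatty acid list, Slc25a20 and Fabp3, were in the second. The r of Fabp3 for values was 0.0224 without HRas-v12 arrays.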

How the data were processed

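RNA of left ventricle was measured on 36 Affymetrix arrays. As deposited, each value is a linear intensity per probe set, which the authors computed with MAS5 per the submitters' processing notes. MAS5's release was not given in the sources used here. A mean trimmed by 2% at both ends was 2500.0 in all arrays, which shows a scaling factor per array already applied. Array medians were 593.5 to 798.6, and the number of arrays limits the precision.

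Here, log2(signal + 32) was taken. The 60% of probe sets with the highest mean log2 were kept (27022), and the brightest of each gene gave 12626 genes. Gene names came from the platform annotation, updated through gene numbers. In limma 3.58.1 (R 4.3.3), 13 group means were fitted over all 36 arrays, with eBayes and an intensity trend, and 13 comparisons were tested. Every p given is limma's Benjamini-Hochberg adjusted p over all 12626 genes unless called unadjusted, and a gene passed under 0.05. The procedure was tested on simulated data. Alternatives were other pseudocounts (16 and 128), no filter, quantile normalization, a fit on only the groups compared, the mean of probe sets, a replicate block, a robust fit, leaving out each array and leaving out the 6 arrays in doubt.

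The members and gene lists were chosen with earlier results of these data known. Besides the 9 members, Esr1, Nr3c1 and Kcnip2, the rule named up to 4 genes passing per list and comparison, by smallest adjusted p, and the 10 most and 5 least alike to Klf15. Xist was added after its values were seen. Hras and Map2k7 were not analysed here, nor were some genes of the lists, among them Klf8, Sp2, Sp9 and Cpt1b. The promoter windows of Klf5 and Klf10 were not analysed here either.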

Additional observations from a re-analysis of the deposited data

Results flagged for a closer look

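Klf15 in HRas-v12 hearts differed between the late and the early time, by a test of the late minus early difference itself (log2 2.32, limma adjusted p = 0.00125). Its mean signal was 251 units early and 5732 late in males, and 4551 early and 4632 late in females. Klf2 differed in the same test (log2 0.63, adjusted p = 0.0419). Klf4 differed between late HRas-v12 and late MKK3bE hearts (log2 -0.52, adjusted p = 0.0329), in a test of HRas-v12 minus MKK3bE. The shared controls drop out of these comparisons, and both use the late HRas-v12 arrays.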

How the results depend on the processing

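Among 2043 values of the 9 genes under the alternatives, 160 belonged to changes called in the report, of which 137 stayed called and 23 did not. A further 17 values became called. Klf15 in early HRas-v12 was called in 20 of 20 alternatives (-3.55 to -2.48), Klf4 in 20, Klf9 in 19, and Klf2 and Klf5 in 18 each. No called value turned its sign. The number of members called moved as follows. Against 2 for late minus early HRas-v12, it was 1 without the filter and 0 when only the groups compared were fitted. That fit gave 2 against 0 in early MKK3bE and 1 against 0 in early MKK7D. For late HRas-v12 minus late MKK3bE it was 0 against 1 with the mean of probe sets and 0 without the 6 arrays in doubt, a choice made after seeing the data, which gave 2 against 0 in early MKK3bE. Leaving out 1 array at a time gave 2 to 5 in early HRas-v12, 1 to 3 for late minus early HRas-v12, 0 to 2 for late HRas-v12 minus late MKK3bE, and 0 to 1 in late HRas-v12, early MKK3bE, early MKK7D and the male minus female difference, with 0 to 0 in the other comparisons. The cause was not tested. The arrays that share a replicate number did not deviate together (33 pairs, r -0.343 to 0.25), and a random replicate block (consensus correlation -0.0264) changed no count of members called: it gave 5 in early HRas-v12, 2 for late minus early HRas-v12, 1 for late HRas-v12 minus late MKK3bE and 0 in the others. The count of all genes called ranged over the alternatives, with the count as reported first: 4267 (1571 to 5335) for early HRas-v12 vs control, 1202 (0 to 2507) for late HRas-v12 vs control, 790 (132 to 2074) for early MKK3bE vs control, 1319 (541 to 2581) for late MKK3bE vs control, 17 (3 to 372) for early MKK7D vs own control, 0 (0 to 428) for late MKK7D vs own control, 1463 (49 to 3291) for late vs early HRas-v12, 1 (0 to 25) for late vs early MKK3bE, 2 (0 to 9) for late vs early MKK7D change, 228 (1 to 554) for early HRas-v12 vs early MKK3bE, 499 (175 to 854) for late HRas-v12 vs late MKK3bE, 139 (4 to 1393) for male vs female early HRas-v12 change and 0 (0 to 61) for control male vs control female. With quantile normalization, the sign turned at Klf3 0.022 for late HRas-v12 vs control. With the mean of probe sets, the sign turned at Klf13 0.083 for early HRas-v12 vs control, Klf13 -0.12 and Klf5 -0.26 for early MKK3bE vs control and Klf3 0.0072 and Klf13 0.058 for late MKK3bE vs control. It also turned at Klf9 -0.016 and Klf13 -0.078 for early MKK7D vs own control, Klf3 0.085, Klf4 0.088 and Klf5 -0.039 for late MKK7D vs own control and Klf13 0.15 and Klf5 0.038 for late vs early MKK3bE. It also turned at Klf13 0.14 for early HRas-v12 vs early MKK3bE, Klf3 -0.064 for late HRas-v12 vs late MKK3bE and Klf4 0.019 for control male vs control female. Without the 6 arrays in doubt, the sign turned at Klf6 -0.074 for late HRas-v12 vs control, Klf13 -0.070 for early MKK7D vs own control and Klf3 0.028, Klf13 -0.31, Klf2 -0.29, Klf4 0.037 and Klf10 0.041 for late MKK7D vs own control. It also turned at Klf13 0.042 for late vs early HRas-v12, Klf13 -0.24 for late vs early MKK7D change and Klf15 -1.05, Klf9 -0.52 and Klf2 -0.21 for early HRas-v12 vs early MKK3bE. It also turned at Klf15 0.27 and Klf9 0.12 for late HRas-v12 vs late MKK3bE and Klf9 0.12, Klf2 0.053 and Klf5 -0.22 for male vs female early HRas-v12 change. Leaving out 1 array at a time also turned signs of values that had not passed (log2, lowest to highest). These were Klf13 -0.26 to 0.063 for early HRas-v12 vs control and Klf3 -0.078 to 0.042, Klf2 -0.32 to 0.052 and Klf6 -0.054 to 0.15 for late HRas-v12 vs control. Next came Klf2 -0.025 to 0.34 for late MKK3bE vs control and Klf9 -0.95 to 0.12, Klf3 -0.083 to 0.028, Klf2 -0.49 to 0.25 and Klf5 -0.22 to 0.73 for male vs female early HRas-v12 change. There were also Klf3 -0.088 to 0.0018 and Klf13 -0.35 to 0.049 for control male vs control female and Klf3 -0.17 to 0.010, Klf13 -0.055 to 0.29, Klf4 -0.40 to 0.045 and Klf6 -0.21 to 0.0018 for early MKK3bE vs control. Klf13 -0.072 to 0.21 for early MKK7D vs own control and Klf15 -0.35 to 0.16, Klf13 -0.12 to 0.24 and Klf2 -0.27 to 0.091 for late vs early MKK7D change turned too. Klf13 -0.078 to 0.28, Klf2 -0.12 to 0.21, Klf4 -0.074 to 0.073 and Klf6 -0.060 to 0.20 for late MKK7D vs own control and Klf5 -0.45 to 0.028 and Klf10 -0.29 to 0.10 for late vs early HRas-v12 turned too. Klf15 -1.05 to 1.10, Klf9 -0.52 to 0.56, Klf3 -0.16 to 0.017, Klf2 -0.21 to 0.26 and Klf5 -0.037 to 0.92 for early HRas-v12 vs early MKK3bE and Klf15 -0.51 to 0.18, Klf9 -0.22 to 0.069, Klf3 -0.047 to 0.073 and Klf10 -0.24 to 0.14 for late HRas-v12 vs late MKK3bE turned too. Klf3 -0.029 to 0.15 and Klf5 -0.14 to 0.10 for late vs early MKK3bE turned too. Every turned value belonged to a change with an adjusted p of at least 0.4588. Signals near the filter limit what dim genes such as Klf5 can show.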
